A study of Mus musculus with 26 samples.

Results

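The data place 9 of the longest genes of the mouse genome on the map of chromatin domains of embryonic stem cells (ESCs): Nrxn3, Cntnap2, Lsamp, Ptprd, Csmd1, Dlg2, Magi2, Macrod2 and Fhit. They were chosen by name as 9 of 21521 protein-coding genes located on chromosomes 1 to 19 and X, and each lies on a different chromosome. Gene positions were taken from RefSeq's GRCm38.p6 annotation, which has the coordinates of mm10. In length they rank from 2 to 16 among these genes, from Ptprd at 2.27 Mb to Magi2 at 1.49 Mb, whereas the median protein-coding gene spans 17.4 kb. The label is thus borne out for length, and the neuronal and fragile-site parts of it are background knowledge that no value in the data measures.

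Micro-C, a chromosome conformation assay that cuts chromatin with micrococcal nuclease, was made from mouse cells in the G1 phase in 26 libraries of 5 groups. All came from a C57BL/6J line derived from Bruce-4 in which the cohesin subunit RAD21 carries the dTAG degron, so the controls carry it as well. ESCs received 0.05% v/v DMSO as vehicle, 500 nM dTAG or 20 µM A485, which blocks the histone acetyltransferases CBP and p300, with 6 libraries each, and epiblast-like cells received DMSO or dTAG, with 4 libraries each. The values below come from 1 list of 3515 boundaries of the DMSO-treated ESCs, which the labels tie to pooled contact files of the 6 libraries. Each boundary is an interval of 25 kb without a score. The list holds no value for a single library, so no replicate error and no test between groups could be had, and the number of contacts behind a boundary is unknown. Whether the line is a single clone is not given in the sources used here, and the dTAG, A485 and epiblast-like groups were not analysed here.

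Chromatin domains are stretches of a chromosome that contact themselves more than their neighbours. Their boundaries form largely where cohesin, extruding loops of chromatin, is halted by CTCF, and many lie close to promoters of active genes. Very long genes are mostly made of introns, are in many cases expressed in neurons, and include many common fragile sites, regions that break when replication is slowed. Nrxn3 and Ptprd encode presynaptic adhesion receptors, Cntnap2 an axonal adhesion protein and Lsamp a membrane-anchored adhesion protein of the limbic system. Csmd1 encodes a large transmembrane regulator of complement, and Dlg2 and Magi2 encode scaffold proteins of the synapse. Macrod2 encodes a hydrolase that removes ADP-ribose from proteins, and Fhit a nucleotide hydrolase at a well known fragile site.

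A boundary was counted as inside a gene when the midpoint of its interval lay there. By this rule the 9 genes, 17.03 Mb in all, held 8 boundaries. Dlg2 and Lsamp held 2 each, and Nrxn3, Ptprd, Magi2 and Macrod2 held 1 each. Cntnap2, Csmd1 and Fhit held 0, Fhit lying before the first boundary of its chromosome, where boundary calling was not tested. Thus 6 of the 9 genes (66.7%, 95% Wilson interval 35.4 to 87.9, covering counting error only) were divided by at least 1 boundary. Over all protein-coding genes the share was 8.27%. Among the 7 other genes at least as long as Magi2 it was 85.7% (48.7 to 97.4), and the difference from the 9 genes was not tested. Among the 50 other genes of 1000 kb or more it was 68% (54.2 to 79.2). Counting any overlap with a boundary interval, 7 of the 9 genes had one, next to 15.1% of all protein-coding genes.

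**Figure D1:**
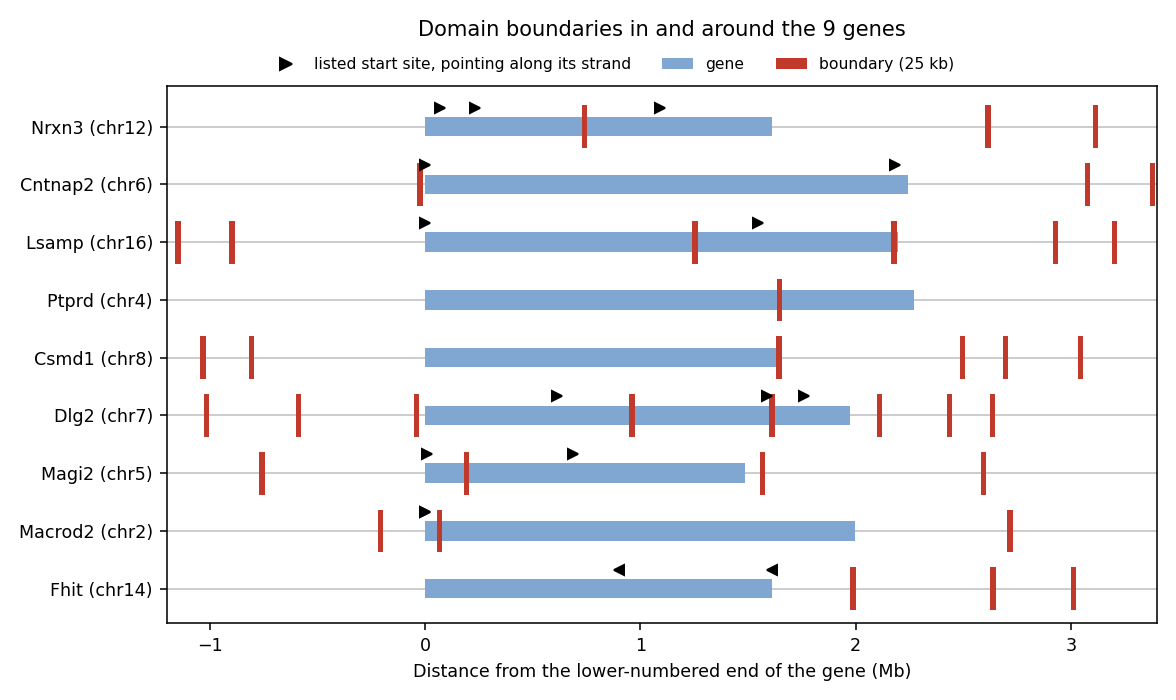
Each line is 1 gene, drawn as a blue bar from its lower-numbered end, with distance in Mb on the horizontal axis, boundaries of the pooled DMSO-treated ESC list as red blocks and listed start sites as black arrowheads that point along the strand. Dlg2 and Lsamp are each divided by 2 boundaries, Cntnap2 and Fhit by 0, and the boundary of Csmd1 straddles its end.

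The start sites listed for these genes show how the boundaries fall with respect to their alternative promoters. RefSeq promoter windows (GRCm38.p6), 250 bases before to 50 after a start site, were found for 7 of the 9 genes, 16 windows in all. Csmd1 and Ptprd were not matched. The windows printed here are those on either side of the boundary inside Nrxn3, Lsamp and Magi2, and the windows of Dlg2 and Cntnap2 that lie closest to a boundary, chosen after their values were seen. Capitals mark each CG pair, the dinucleotide that is dense in CpG island promoters, and strands are read 5′ to 3′.
Nrxn3 second window, chr12:88953140-88953439, plus strand: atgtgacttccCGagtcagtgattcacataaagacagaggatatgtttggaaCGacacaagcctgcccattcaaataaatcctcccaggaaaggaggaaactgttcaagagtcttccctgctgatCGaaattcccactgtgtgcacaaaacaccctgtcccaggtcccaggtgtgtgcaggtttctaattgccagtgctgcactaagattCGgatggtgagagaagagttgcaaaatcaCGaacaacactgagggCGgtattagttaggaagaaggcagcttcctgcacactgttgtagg
Nrxn3 last window, chr12:89812233-89812532, plus strand: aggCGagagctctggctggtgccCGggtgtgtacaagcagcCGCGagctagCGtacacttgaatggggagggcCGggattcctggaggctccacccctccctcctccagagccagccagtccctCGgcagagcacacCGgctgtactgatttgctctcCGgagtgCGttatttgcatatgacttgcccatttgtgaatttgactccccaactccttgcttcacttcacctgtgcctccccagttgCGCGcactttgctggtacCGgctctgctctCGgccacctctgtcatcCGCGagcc
Lsamp first window, chr16:39984114-39984413, plus strand: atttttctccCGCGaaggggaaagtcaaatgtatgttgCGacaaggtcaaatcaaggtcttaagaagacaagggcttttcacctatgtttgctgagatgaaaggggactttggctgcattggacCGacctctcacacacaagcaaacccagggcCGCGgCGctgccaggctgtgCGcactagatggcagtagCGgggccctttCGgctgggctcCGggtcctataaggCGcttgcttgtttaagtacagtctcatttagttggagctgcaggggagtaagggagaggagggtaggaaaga
Lsamp second window, chr16:41532576-41532875, plus strand: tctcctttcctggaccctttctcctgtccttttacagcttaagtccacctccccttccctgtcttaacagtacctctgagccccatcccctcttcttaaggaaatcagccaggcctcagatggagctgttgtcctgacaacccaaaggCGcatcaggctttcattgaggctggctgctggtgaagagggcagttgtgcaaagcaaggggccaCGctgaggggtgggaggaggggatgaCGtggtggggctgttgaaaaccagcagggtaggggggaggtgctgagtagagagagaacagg
Magi2 first window, chr5:19226796-19227095, plus strand: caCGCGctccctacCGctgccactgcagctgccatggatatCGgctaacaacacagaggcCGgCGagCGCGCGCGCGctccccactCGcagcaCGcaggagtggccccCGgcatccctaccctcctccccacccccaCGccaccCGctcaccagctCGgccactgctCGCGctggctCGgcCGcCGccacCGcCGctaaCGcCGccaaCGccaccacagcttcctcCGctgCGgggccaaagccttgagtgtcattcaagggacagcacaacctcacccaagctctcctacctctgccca
Magi2 second window, chr5:19907268-19907567, plus strand: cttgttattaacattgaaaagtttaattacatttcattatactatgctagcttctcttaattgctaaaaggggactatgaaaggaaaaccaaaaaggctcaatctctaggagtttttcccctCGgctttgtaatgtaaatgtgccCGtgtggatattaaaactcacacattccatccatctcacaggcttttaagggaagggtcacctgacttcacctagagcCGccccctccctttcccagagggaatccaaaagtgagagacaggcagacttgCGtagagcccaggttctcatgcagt
Dlg2 second window, chr7:92062144-92062443, plus strand: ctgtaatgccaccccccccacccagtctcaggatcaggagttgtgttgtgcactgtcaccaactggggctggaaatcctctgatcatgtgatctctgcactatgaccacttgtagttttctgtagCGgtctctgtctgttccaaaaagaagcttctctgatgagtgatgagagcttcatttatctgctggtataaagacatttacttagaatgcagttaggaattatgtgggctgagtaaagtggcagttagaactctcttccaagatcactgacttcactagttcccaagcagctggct
Cntnap2 first window, chr6:45059811-45060110, plus strand: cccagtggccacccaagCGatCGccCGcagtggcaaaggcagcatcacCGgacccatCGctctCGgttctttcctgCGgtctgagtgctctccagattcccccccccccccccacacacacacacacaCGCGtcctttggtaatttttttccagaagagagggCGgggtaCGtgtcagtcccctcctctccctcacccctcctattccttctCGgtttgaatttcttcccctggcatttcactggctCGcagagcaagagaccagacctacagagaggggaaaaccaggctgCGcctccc

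The CG pair, which reads the same on both strands, occurs at least once in 95.5% of the 21045 windows of protein-coding genes, with a median of 13 in 300 bases. In Magi2 the window before the boundary held 29 CG pairs and the one after it 4. In Lsamp the first window held 12 and the second 3. In Nrxn3 the order was the other way round, with 6 in the second window and 16 in the last. Cntnap2 and Fhit, with no boundary between their start sites, also had fewer in the second window. Cntnap2 held 14 in the first and 3 in the second, and Fhit 12 and 7. The Dlg2 windows held 3, 1 and 2, all under the median. Macrod2 had the most, 33 in each of 2 windows that start 5 bases apart, which 11.4% of all windows reach.

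Nrxn3 (chromosome 12, 88722701 to 90334935, 1.61 Mb, plus strand) was divided by the boundary from 89450001 to 89475000. Its midpoint lay 45.9% of the way along the gene from the start. Of the 3 listed start sites 2 lay before it and 1 after, the latter 337 kb away. The first listed site lay 71.8 kb into the gene, and none was listed at the upstream end itself. Neurexin genes are known for a long alpha and a short beta form made from separate promoters, and the windows in the table are not assigned to these forms. Here and below, a domain was taken to hold another protein-coding gene when the midpoint of that gene lay in it. The domain at the upstream end measured 1.98 Mb and held 45.1% of Nrxn3 along with 19 other protein-coding genes, the nearest of them Adck1 at 261 kb. The domain at the downstream end measured 1.85 Mb and held 53.3%, with only Dio2, which encodes a deiodinase that activates thyroid hormone, and the centriolar gene Cep128 beside it. The boundary nearest to either end of Nrxn3 was the one inside it, 727 and 859.9 kb away, and no boundary had its midpoint within 1 Mb outside the gene. The next one above began 990.1 kb from the gene end, with its midpoint 1003 kb away.

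Cntnap2 (chromosome 6, 45060061 to 47301393, 2.24 Mb, plus strand) lay whole inside a single domain of 3.08 Mb, of which it filled 72.9%. This domain ranked 50 of 3495 in length. A boundary from 45025001 to 45050000 closed the domain just ahead of the gene, 10.061 kb from its first start site, whose window is printed above. The gene thus missed the window of 10 kb used here for a gene end near a boundary by 61 bases. The second listed start site, 97.5% along the gene, was 880.6 kb from the nearest boundary and lay in the same domain as the first. Beyond the far end the domain held 16 other protein-coding genes, beginning with Cul1, the scaffold of SCF ubiquitin ligases, at 152 kb and Ezh2, the histone H3 methyltransferase of Polycomb complexes, at 229 kb.

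Lsamp (chromosome 16, 39984254 to 42181679, 2197 kb, plus strand) was cut into 3 stretches by boundaries at 41225001 and 42150001, which lay 57.0% and 99.1% along the gene. The first boundary separated its 2 listed start sites. The second lay 6.68 kb inside the downstream end, so that only 0.304% of the gene reached into the last domain, where Gap43, which encodes a growth cone protein, lay 66.9 kb beyond the gene. The first domain, of 2.13 Mb, held 56.5% of Lsamp and the midpoint of no other protein-coding gene. The middle one, of 900 kb, lay entirely within Lsamp and held 41.0% of it, together with the nested gene Gm52229.

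Ptprd (chromosome 4, 75941237 to 78211742) had the longest domains of the set on both sides. Its single boundary, from 77575001 to 77600000, lay 72.5% of the way from the lower-numbered end. The domain below it measured 3.15 Mb and the one above it 3.23 Mb, ranks 45 and 41 of 3495. The only other protein-coding gene with its midpoint in these 2 domains was Dmac1, a gene for assembly of respiratory complex I, 663 kb below Ptprd. The ends of the gene lay 1516 and 612 kb from a boundary, and the nearest boundary outside the gene was the one 1516 kb below it.

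Csmd1 (chromosome 8, 15892538 to 17535385, 1.64 Mb) was the one gene whose upper end fell inside a boundary. The interval, from 17525001 to 17550000, covered the last part of the gene, but its midpoint lay 2115 bases beyond the gene, so it was not counted as inside. The remaining 99.4% of Csmd1 lay in a 2.43 Mb domain that held the midpoint of no other protein-coding gene apart from the nested C030002A05Rik.

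Dlg2 (chromosome 7, 90476188 to 92449246, 1.97 Mb, plus strand) was divided into 3 long stretches. Boundaries at 91425001 and 92075001, 48.7% and 81.7% along the gene, cut it into lengths of 949, 625 and 349 kb. No start site was listed at the upstream end of Dlg2, and the first listed one lay 614.6 kb into the gene. The 3 listed start sites lay 1 in each stretch. The second of them, printed above, lay 12.6 kb before the boundary at 92075001, the shortest distance from a listed start site to a boundary inside the same gene among the 5 genes that have both. That interval also overlapped the nested long non-coding RNA gene 4930567K12Rik. The 3 domains measured 975, 625 and 475 kb, the first almost filled by Dlg2 (97.3%) and shared with Tmem126b and Tmem126a, genes for mitochondrial membrane proteins. Its flanks were also the most divided, with 5 boundary midpoints within 1 Mb.

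Magi2 (chromosome 5, 19219387 to 20704792, plus strand) was cut near its start, at 13.0% of its length, by the boundary from 19400001 to 19425000. The 2 listed start sites lay on either side, at 173 kb before the boundary and 483 kb after it. The main part, 86.2% of the gene, filled 94.8% of a 1.35 Mb domain, and the first part lay in a domain of 925 kb. Neither domain held the midpoint of another protein-coding gene.

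Macrod2 (chromosome 2, 140395303 to 142392966, 2.00 Mb, plus strand) was cut still closer to its start, at 3.36% of its length, by the boundary from 140450001 to 140475000, 54.6 kb from its start sites. The first 54.7 kb lay in a 250 kb domain with Sel1l2, 5.59 kb ahead of the gene. The other 96.0% lay in a 2.63 Mb domain with 4 other protein-coding genes. One of them is Flrt3, an adhesion and guidance gene nested inside Macrod2, and the others are Kif16b, Snrpb2 and Otor, from 225 kb beyond its end.

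Fhit (chromosome 14, 9550092 to 11162061, 1.61 Mb, minus strand) lay before the first boundary of its chromosome, at 11525001, and therefore in no domain with 2 ends. Its start lay 363 kb from that boundary, and its other end 1975 kb from it. Both listed start sites, the second 44.0% along the gene, lay on the same side of it. Whether boundaries could be called ahead of this point was not tested.

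Boundaries were sparse along these genes. The 8 boundaries gave 0.470 per Mb, against 1.37 per Mb over the annotated span of all chromosomes, a ratio of 0.343, and the density of the whole span would have placed 23.3 boundaries in the same length. Leaving out 1 gene at a time moved the value between 0.398, without Dlg2, and 0.541, without Cntnap2. Without Fhit, which lies before the first boundary of its chromosome, the value was 0.519. The other 7 genes at least as long as Magi2 held 0.657 per Mb. Their median length was 1555 kb, against 1973 kb in the 9 genes. Genes of 1000 kb or more, the members left out, held 0.770 and those of 500 to 1000 kb 0.943, while genes under 50 kb held 3.39. These values count a boundary once for each gene it lies in. They are given with no test, because the list is pooled and has no replicates.

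**Figure D2:**
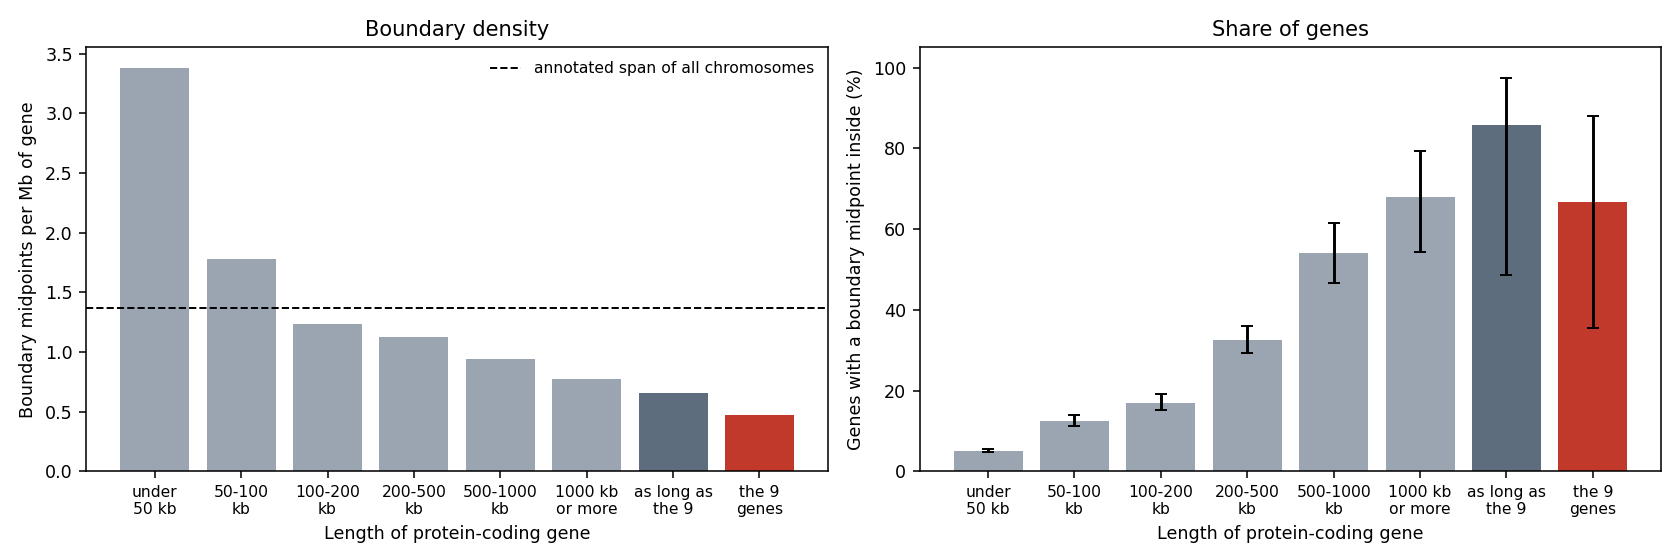
Protein-coding genes are grouped by length on the horizontal axis, with the 9 genes in red at the right and the 7 others at least as long as the shortest of them in dark grey, which also count in the class of 1000 kb or more. The left panel gives boundary midpoints per Mb of gene, with a dashed line at the 1.37 per Mb of the whole annotated span, falling from 3.39 under 50 kb to 0.470 in the 9 genes, and the right panel the percentage of genes with a boundary inside with 95% Wilson intervals, 66.7% in the 9 genes.

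Away from gene ends the length classes lay closer together. With the outer 50 kb at each end left out, a setting chosen after the data were seen, genes of 200 to 500 kb held 0.639 per Mb, genes of 500 to 1000 kb 0.837 and genes of 1000 kb or more 0.715. The 9 genes held 0.434 and the 7 others at least as long as Magi2 0.697, from 7 and 8 boundaries. The surroundings of the 9 genes were sparse as well. Counted by midpoints, within 1 Mb on either side they had 17 boundaries in 18 Mb, or 0.944 per Mb, against 1.24 around genes of 1000 kb or more and 1.69 around genes of 200 to 500 kb. These flanks ranged from 0 midpoints at Ptprd and Nrxn3, the latter with the edge of a boundary still within 1 Mb, to 5 at Dlg2. The flank below Fhit lay before the first boundary of its chromosome, where boundary calling was not tested.

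The domains that hold parts of the genes were long. The 8 genes with bounded domains touched 16 of them, from 250 to 3225 kb with a median of 1600 kb, while the 3495 domains of the list had a median of 500 kb and quartiles of 325 and 825 kb. Of the 16, 9 reached 1 Mb (56.2%), against 18.9% of all domains, although 46.6% of all bases inside domains lie in domains that long. For the 94 domains touched by the 50 other genes of 1000 kb or more the share was 55.3% and the median 1075 kb. A gene can lie unbroken only in a domain longer than itself.

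**Figure D3:**
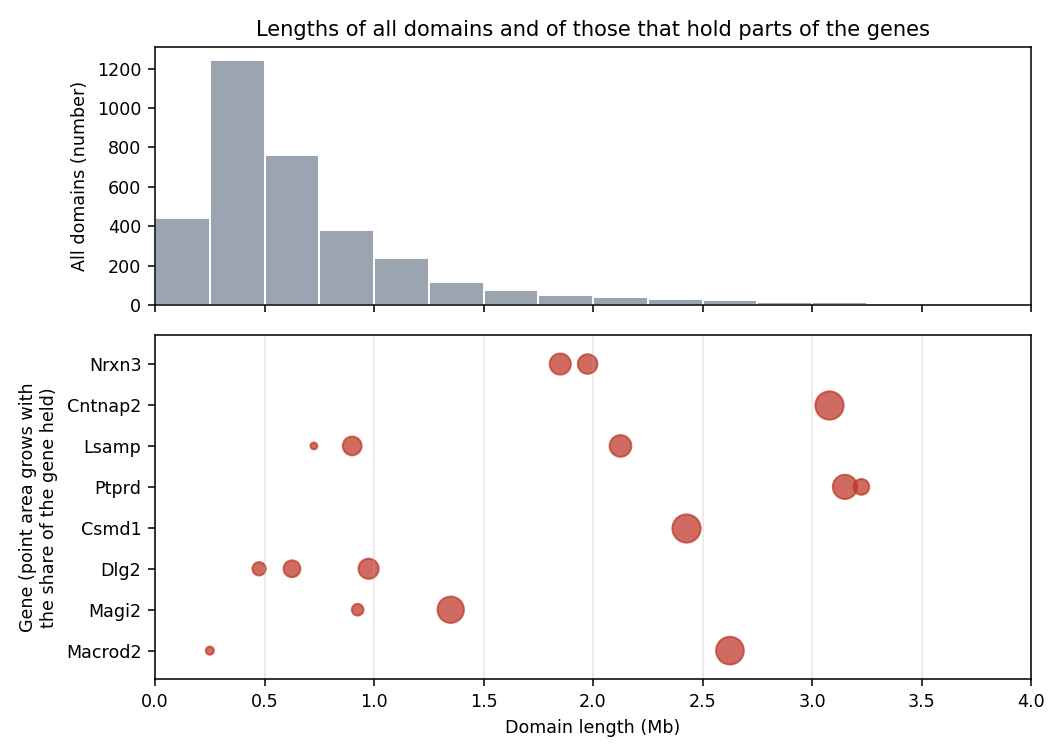
The upper panel counts all domains by length in Mb, in bins of 250 kb, leaving out 19 domains over 4 Mb. The lower panel shows each domain that holds part of a gene, with point area growing with the share of the gene held; Cntnap2, Ptprd, Macrod2, Csmd1 and Lsamp have most of their length in domains over 2 Mb, and Dlg2 in domains under 1 Mb.

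Boundaries inside these genes were mostly far from the ends of protein-coding genes. Only 1 of the 8, at the downstream end of Lsamp, had such an end in its interval or within 10 kb, whereas 64.3% of all 3515 boundaries did. With ends of any annotated gene the count was 3 of 8: the Lsamp boundary, the second Dlg2 boundary with 4930567K12Rik, and the Macrod2 boundary, 9.35 kb from the small nuclear RNA gene Gm23846. The share of all 3515 boundaries with an end of any annotated gene that near was not counted. The 64.3% covers ends of protein-coding genes only. For the boundaries of Nrxn3, the first of Lsamp and the first of Dlg2 the nearest protein-coding gene end was 727, 714 and 949 kb away. Boundaries well inside very long genes are far from gene ends by their position. None of the 16 listed start sites lay within 10 kb of a boundary (11.8% of all 21045 did), and 2 lay within 50 kb (27.1% of all), the first of Cntnap2 at 10.1 kb and the second of Dlg2 at 12.6 kb.

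Seen from the genes, 2 of the 9 had an end in a boundary or within 10 kb of one, Csmd1 and Lsamp, next to 18.3% of all protein-coding genes. Within 50 kb there were 4, with Cntnap2 at 10.1 kb and Dlg2 at 26.2 kb, next to 35.6%. Macrod2 and Magi2 followed at 54.7 and 70.2 kb, and Fhit, Ptprd and Nrxn3 lay 363, 612 and 727 kb away. Among the 50 other genes of 1000 kb or more, 22% had an end within 10 kb of a boundary and 44% within 50 kb. For the 7 others at least as long as Magi2 the share was 42.9% at both distances.

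Some boundaries lay between alternative start sites of 1 gene. Of the 6 genes with listed start sites 100 kb or more apart, 4 had a boundary between them, namely Nrxn3, Lsamp, Dlg2 and Magi2. Cntnap2 and Fhit did not, and Fhit lies before the first boundary of its chromosome. Of the 6 boundaries inside these 6 genes, 5 lay between the outermost start sites. Among 168 other protein-coding genes with start sites at least 100 kb apart the share was 28.0%. Their start sites had a median spread of 185 kb, however, and the members' one of 1081 kb. Among the 11 other genes whose start sites were at least as far apart as the 680 kb of Magi2, 63.6% had a boundary between them, next to 66.7% of the members. Of the boundaries inside the 168 genes, 50 of 82 lay between the outermost start sites. Inside the 11 genes 10 of 11 did, next to the 5 of 6 in the members.

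Of 26 relatives from the same gene families, 6 held a boundary (23.1%, next to 8.27% of all protein-coding genes), and these were from 207 to 1135 kb long. The median length of the 26 was 187 kb. Magi3 held 1 and Magi1 held 2. Lsamp belongs to the IgLON adhesion proteins, and its long relatives Ntm (969 kb), Opcml (1135 kb) and Negr1 (755 kb) each held 1 boundary, while Iglon5, of 17.3 kb, held 0. None of the 6 relatives of Cntnap2 held the midpoint of a boundary, among them Cntnap5a, Cntnap5b and Cntnap5c of 903, 718 and 649 kb. An end of Cntnap5c lay inside a boundary interval, as at Csmd1. Among the 218 other genes of 500 kb or more, 57.3% held one. Csmd2 (581 kb) and Csmd3 (1212 kb) held 0 like Csmd1, and had an end 7.34 and 7.44 kb from a boundary.

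Of 26 synaptic and axonal adhesion partners, with a median length of 26.1 kb, 4 held a boundary (15.4%, next to 8.27% of all protein-coding genes). They were Cntn4 and Il1rapl1, both over 1000 kb, and the leucine-rich repeat genes Lrrtm2 and Lrrtm3. Lrrtm3 lies within Ctnna3, and the boundary is the one counted there. Nlgn1, which encodes a postsynaptic partner of neurexins and spans 911 kb, held 0 and lay 692 kb from a boundary. Of 22 other very long or fragile-site genes, all of 725 kb or more, 14 held a boundary (63.6%), at 0.617 per Mb. These 22 are among the 218 other genes of 500 kb or more, of which 57.3% held one, at 0.881 per Mb. Among the 50 other genes of 1000 kb or more the share was 68%, at 0.770 per Mb. Wwox, which like Fhit is known as a fragile-site gene, held 1, and Immp2l held 0.

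The genes closest in length to the members, by the difference in length, were Dmd for Cntnap2 and Ptprd, Lrp1b for Lsamp, Dlg2 and Macrod2, Ctnna3 for Nrxn3, Csmd1 and Fhit, and Dpp10 for Magi2. Dmd, the muscle dystrophin gene and the longest protein-coding gene located here at 2.39 Mb, held 2 boundaries, Dpp10 also 2, Ctnna3 1 and Lrp1b 0. Robo2 and Pcdh15, next in length, held 1 each. The most boundaries in any other protein-coding gene were 3, in Pde4d (1302 kb) and in the axon guidance receptor gene Robo1 (1020.0 kb), both shorter than every member.

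**Figure D4:**
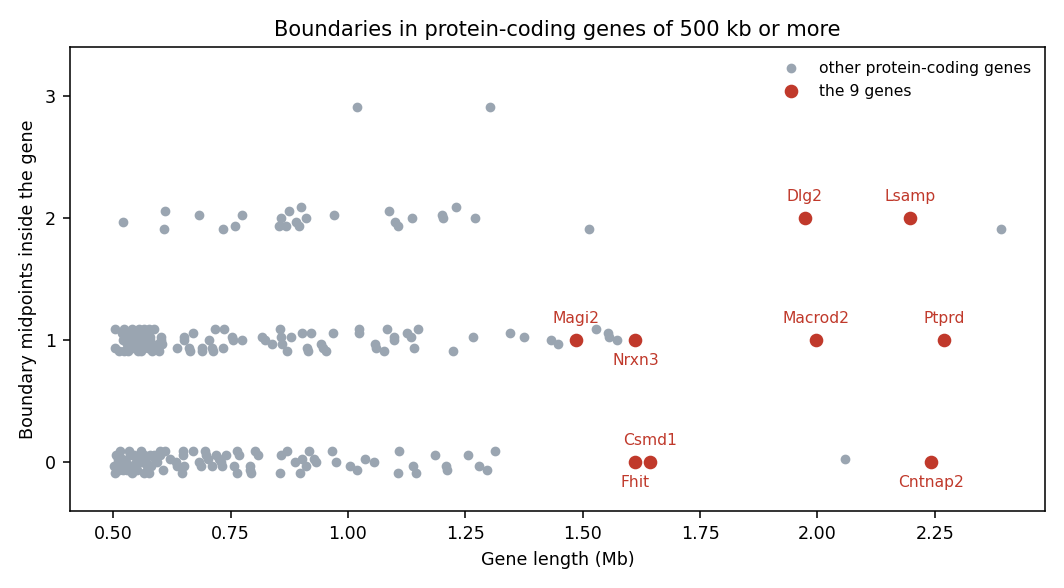
Each point is a protein-coding gene of 500 kb or more, with its length in Mb on the horizontal axis and the number of boundary midpoints inside it on the vertical axis; grey points are shifted slightly up or down to show overlaps, and the 9 genes are red. The 9 genes hold 0 to 2 boundaries, and the only genes with 3 are shorter than all of them.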

How the data were processed

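The deposited boundary list was made by the authors on mm10. The submitters' processing notes name BWA 0.7.17 for alignment and Juicer 1.22.01. No source used here names the caller of the boundaries or its settings. The list has columns for chromosome, start and end and no score, and coordinates are given here with the first base as 1. Domain lengths run between the facing edges of adjacent intervals. In the RefSeq table, 345 genes of other scaffolds, found where starts fall back within a chromosome, were left out. Start sites and strands came from the RefSeq promoter table, and exons were not analysed here. No test was made, because the list is pooled and has no replicates. Counting was tested on simulated boundaries. Alternatives were other rules for a boundary inside a gene, joined intervals within 100 kb, trimmed genes, other windows and other length limits. The genes, lists and rules were chosen with earlier results of these data known. The genes named were the 9 members, the nearest neighbours in their domains, nested genes at boundaries, genes closest in length, the 5 longest others and the 5 others with most boundaries, and genes of 3 related lists. ESC libraries whose growth protocol mentions epiblast-like differentiation (6, in the dTAG and A485 groups) entered no value. Scripts ran under Python 3.11.15 with pandas 2.3.3, numpy 2.4.6 and scipy 1.17.1, and plots were drawn with matplotlib 3.10.9.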

Additional observations from a re-analysis of the deposited data

How the results depend on the processing

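The total of 8 boundaries in the 9 genes, the 6 genes that hold one and the density of 0.470 per Mb stayed within 1.5 times under each alternative run for them: any overlap, whole intervals, joined intervals, trimmed genes, and leaving out Dlg2 or Lsamp, which tie for the most boundaries. With any overlap Csmd1 held 1 boundary instead of 0. The number of genes with an end near a boundary, 2 within 10 kb, was 1 with no window (Csmd1) and 4 within 50 kb. Of the other very long genes 85.7% held a boundary, and 100% did with any overlap, where the interval at Lrp1b also counted. Positions and domain lengths moved by at most the width of an interval. No paired analysis was possible because the list pools the libraries, and no library could be left out for the same reason. Mappability and gaps were not tested, and depth is unknown.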

Other observations

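The 9 genes contained 57 other annotated genes in all, 3 of them protein-coding: Flrt3 in Macrod2, Gm52229 in Lsamp and C030002A05Rik in Csmd1. Cntnap2 held the most, 10, of which 5 were pseudogenes and 4 long non-coding RNA genes, and Nrxn3 held only the long non-coding RNA gene Gm40537. Fhit contained 4, among them 1 long non-coding RNA gene. Of the 8 boundaries inside the genes, 1 overlapped a nested gene, 4930567K12Rik in Dlg2. The same share for boundaries inside other genes was not counted.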
